A study of Mus musculus with 24 samples.

Results

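A set of 44 genes of S phase and DNA replication was followed in cells taken from regenerating and sham-operated mouse liver. The set was put together from known roles at the replication fork, with earlier results of these data known. It covers origin licensing (9 genes), helicase activation (3), polymerases, clamp and flap processing (9), nucleotide supply (3), repair (6), fork protection and checkpoint (3), chromatin and histone supply (7) and S phase entry (4). All 44 were among the 46477 symbols of the count table, 27740 of which had at least 1 count, and all 44 passed the filter on low counts that left 14325 genes for testing. The donors were wild-type (WT) BALB/C male mice aged 8 weeks. They had either 70% of the liver resected (hepatectomy) or a midline laparotomy alone (sham), and livers were taken on postoperative day (POD) 1, 2, 3 or 4. Non-parenchymal cells were enriched in sequence with a magnetic bead kit for CD11b+Ly6G+ granulocytic myeloid-derived suppressor cells (G-MDSCs), and polyadenylated RNA was sequenced. Each of the 8 groups held 3 libraries, 24 in all. The labels do not say that the libraries of a group came from separate mice, so p-values measure the spread between libraries.

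Before S phase, the origin recognition complex, Cdc6 and Cdt1 load the MCM2-7 ring onto DNA, a step called licensing. Cyclin E with its kinase then starts S phase, Cdc45 and GINS turn the ring into an active helicase, and the primase, the polymerases and the sliding clamp PCNA copy both strands. Many of these genes are transcribed together by E2F factors when the retinoblastoma protein is phosphorylated, and E2F1 and cyclin E are themselves among the targets. Mature neutrophils have left the cell cycle. In liver regrowth, hepatocytes enter S phase first and non-parenchymal cells, sinusoidal endothelium among them, follow.

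The E2F link was looked at in the promoters. Windows of 300 bases, from 250 before to 50 after the annotated start, were available from RefSeq (GRCm38.p6) for 34 of the 44 genes. They were searched on both strands for the words TTTCCCGC, TTTGGCGC, TTTCGCGC and TTTGCCGC, which can overlap where they stand back to back. A word was found in 13 of the 34 genes (38.2%), against 704 of the 27025 genes of the whole promoter table (2.60%). The CCAAT box, searched by its 5 letters, was found in 22 of the 34 (64.7%) and in 41.1% of all genes. By role, a word stood in 6 of 7 licensing genes with a window, in 2 of 7 of the polymerase and clamp group, in both fork protection genes with a window (2) and in 3 of 7 chromatin genes. None was found in the windows of helicase activation, nucleotide supply, repair and S phase entry genes. The annotated start matters here: of 38 windows of these genes with coordinates, 32 had a start of the same gene in GENCODE M21 within 50 bases, while that of E2f1 lay 294 bases from the nearest and 466 bases inside the outermost, so that the bases before the latter were not searched.

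The stretches below show where the words lie in the 10 genes with a match before an annotated start, in the order of their roles. Each runs from 20 bases before the first word to 20 after the last, or to the last base before the start, 5′ to 3′ on the strand of the gene, with the E2F words in capitals.
Orc1, chr4:108579407-108579453, plus strand: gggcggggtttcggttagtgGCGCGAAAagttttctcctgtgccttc
Cdc6, chr11:98907993-98908040, plus strand: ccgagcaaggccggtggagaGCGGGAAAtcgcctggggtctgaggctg
Mcm5, chr8:75109336-75109387, plus strand: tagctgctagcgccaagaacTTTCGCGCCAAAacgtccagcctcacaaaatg
Mcm6, chr1:128359725-128359835, minus strand: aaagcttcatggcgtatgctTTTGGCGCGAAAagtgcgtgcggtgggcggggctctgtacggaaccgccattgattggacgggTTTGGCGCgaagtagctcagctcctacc
Mcm7, chr5:138172021-138172068, minus strand: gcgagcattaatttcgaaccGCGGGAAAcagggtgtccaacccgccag
Pola1, chrX:93632266-93632313, minus strand: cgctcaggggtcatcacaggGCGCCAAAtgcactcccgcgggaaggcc
Dtl, chr1:191575545-191575572, minus strand: atcagaaagcgtgacgtcagTTTGGCGC
Uhrf1, chr17:56304108-56304155, plus strand: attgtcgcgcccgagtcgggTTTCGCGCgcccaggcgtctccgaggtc
Hells, chr19:38930908-38930955, plus strand: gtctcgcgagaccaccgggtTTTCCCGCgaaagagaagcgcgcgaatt
Cdca7, chr2:72476128-72476175, plus strand: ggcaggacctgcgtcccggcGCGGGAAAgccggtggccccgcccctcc
In Mcm5 and Mcm6 the first pair of words overlaps on opposite strands, and Mcm6 holds another word nearer the start. The words begin 27 bases before the start in Orc1, 8 in Dtl, 47 (the nearest) in Mcm6, 62 in Hells and 71 in Cdca7, 138 in both Cdc6 and Pola1, 165 in Mcm7 and 185 before the second annotated start of Uhrf1. Mcm3, Pold3 and Clspn held a word only after the start, and Mcm7 another there. A match is a run of letters and was not tested for binding.

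Library totals ranged from 10390216 to 16949088 counts. The unit of level is CPM (counts per 1000000 of the TMM-scaled library total), in which 1 count was worth between 0.0433 and 0.146 CPM. The sorted fractions differed in what other cells they held. All 12 neutrophil markers had counts in every group, but so did all 19 markers of sinusoidal endothelium, whose summed level ran from 35270 to 42860 CPM in the 3 libraries of sham POD2, where that of the neutrophil markers ran from 3635 to 8594 CPM. In hepatectomy POD1 the order was the other way, with 1693 to 1907 CPM of endothelial and 161000 to 192100 CPM of neutrophil markers. Averaged as log2(CPM + 1), the 19 markers gave each library an endothelial score, and the scores left a gap between 8.32 and 9.83. Below it lay 9 libraries: the 3 of hepatectomy POD1, both first replicates of hepatectomy POD3 and POD4, all sham POD1 libraries but replicate 3, and all sham POD4 libraries but replicate 1. In these bulk samples fewer cells of a type and less RNA per cell cannot be told apart.

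Across the series the replication genes were lowest the day after hepatectomy and highest on the later hepatectomy days. The group mean was lowest in hepatectomy POD1 for 35 of the 44 genes. It was highest in hepatectomy POD4 for 21, in hepatectomy POD2 for 16, in hepatectomy POD3 for 3 and in hepatectomy POD1 for 2 genes, and in a sham group for the remaining 2, Wdr76 (sham POD2) and Rfc2 (sham POD4). A mean over the 44 genes of log2(CPM + 1) stood at 1.39 to 1.45 in hepatectomy POD1, at 3.16 to 3.48 in hepatectomy POD2, and between 1.88 and 2.4 in the 12 sham libraries. The 3 libraries of hepatectomy POD3 were far apart, at 2.36, 4 and 2.94, and those of POD4 stood at 2.62, 3.67 and 3.73. Replicate 2 of hepatectomy POD3 was the single highest library for 35 of the 44 genes.

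**Figure D1:**
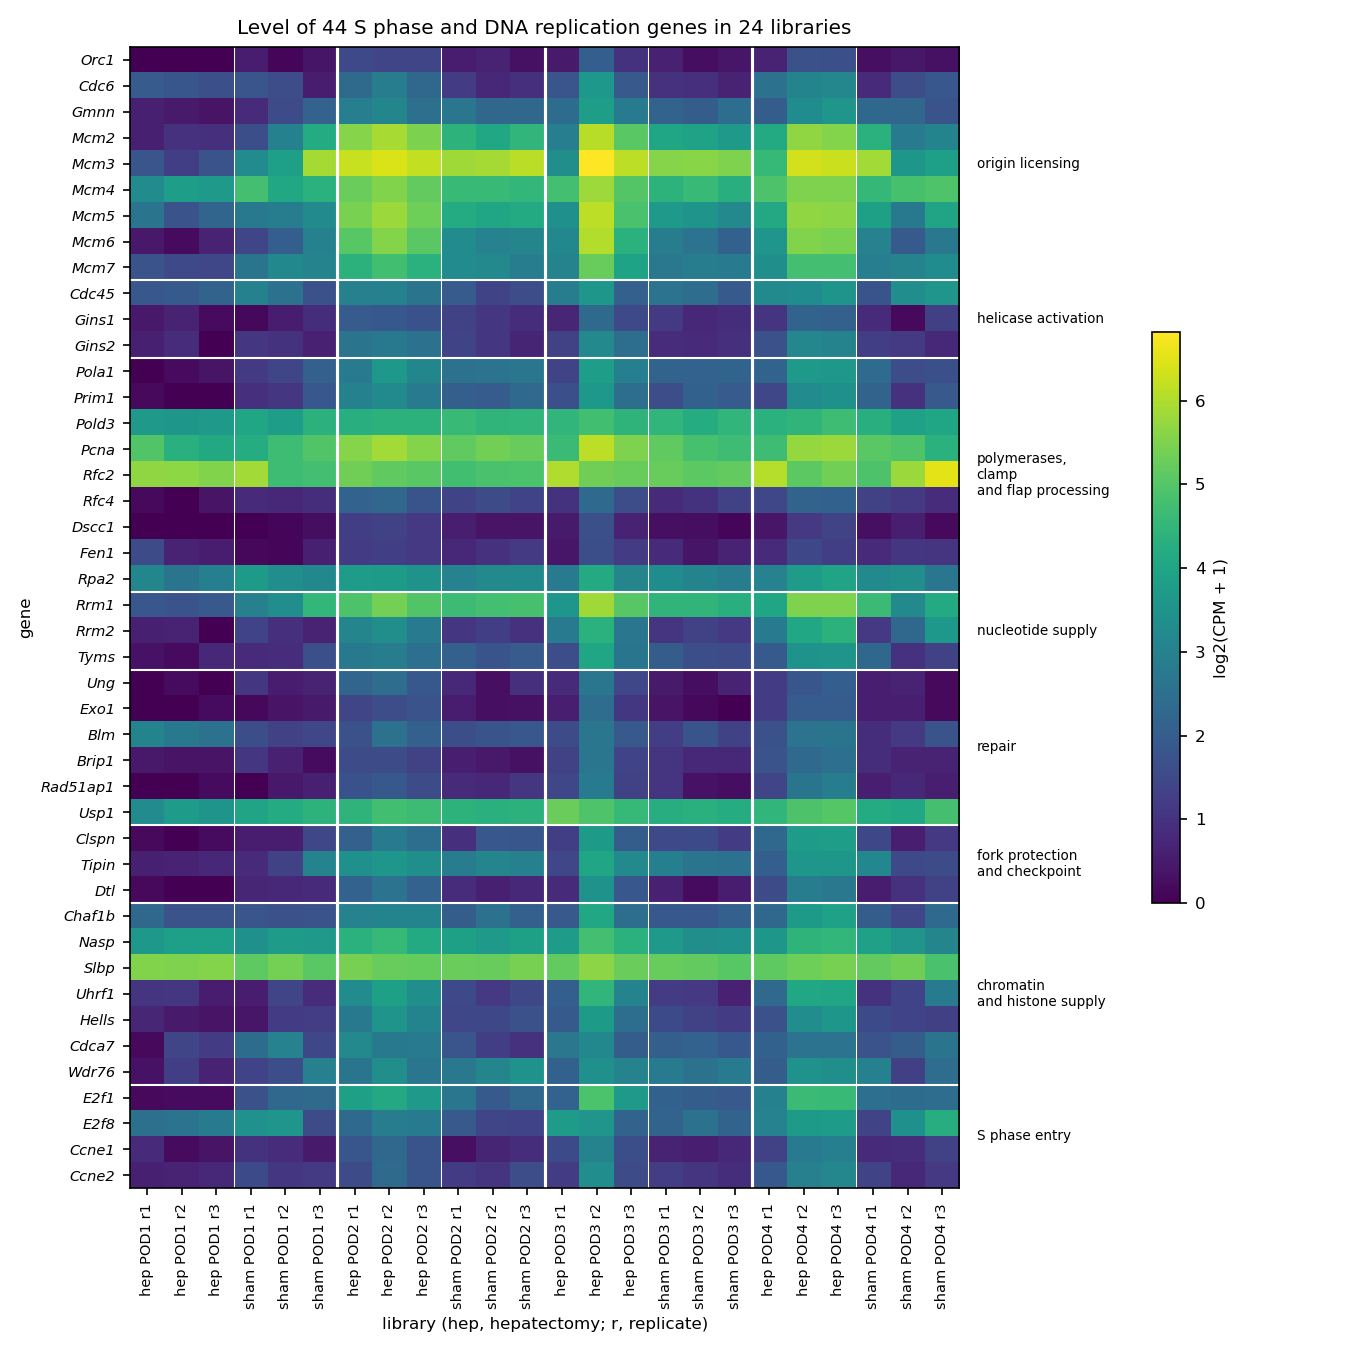
Level of each gene (rows, grouped by role) in each of the 24 libraries (columns, ordered by day and then operation), as log2(CPM + 1). The 3 columns of hepatectomy POD1 are dark for most genes, the 3 of hepatectomy POD2 and replicate 2 of hepatectomy POD3 are bright, and Slbp and Pold3 keep a similar colour throughout.

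Per kilobase of exon, averaged over the 8 groups, the level was highest for Pcna, the sliding clamp, at 14.6 CPM per kb. Mcm3, a subunit of the helicase ring, came next at 12.1 CPM per kb, then Mcm4 at 7.58, Rfc2, a clamp loader subunit, at 6.62, and Slbp, which binds the stem loop of histone mRNAs, at 6.27 CPM per kb. The lowest were Brip1, a helicase of crosslink repair, at 0.186, Dtl at 0.146, Dscc1, a subunit of an alternative clamp loader, at 0.122, and Exo1, a resection nuclease, at 0.112 CPM per kb.

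The first comparison asked how the set stood a day after resection against a sham operation. At POD1 most replication genes were low after hepatectomy. In an edgeR fit of all 24 libraries, 20 of the 44 fell and 2 rose at an adjusted p under 0.05, where 28% of all genes tested fell and 13% rose. The median log2 fold change was -1.32 over the 44 genes, or -1.18 without Orc1 and Dscc1, and -0.42 over all genes. Those 2 had 0 counts in all hepatectomy libraries and a mean sham level under the floor of 3 counts per library. With library size alone as the scale, the median over all genes moved from -0.42 to -1.44, that of the set to -2.27, and 30 genes fell and 0 rose, where 56.3% of all genes fell and 4.26% rose. Leaving out replicate 1 or 3 of hepatectomy POD1 or replicate 3 of sham POD1 gave 11, 12 and 12 genes that fell, where 17.4%, 20.5% and 14% of all genes did. For 25 of the 44 genes all 3 hepatectomy libraries lay below all 3 sham libraries, as they did for 28.1% of all genes.

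Licensing genes made up 7 of the 20 that fell: Orc1, Gmnn, Mcm2, Mcm3, Mcm4, Mcm6 and Mcm7. Mcm2, a subunit of the ring, stood at 0.519, 0.977 and 0.876 CPM after hepatectomy and at 2.13, 6.92 and 17.3 CPM after sham. The groups did not overlap, and the sham libraries themselves spread widely, with replicate 3 the highest. The difference was log2 -3.48 ± 0.81, adjusted p = 0.00366. Mcm6 stood at 0.389, 0.14 and 0.584 against 1.69, 3.14 and 6.94 CPM (log2 -3.40 ± 0.83, adjusted p = 0.00477), and Mcm3 at 2.47, 1.4 and 2.34 against 8.76, 13.4 and 58.7 CPM (log2 -3.70 ± 0.86, adjusted p = 0.00373). All 3 sham values of Mcm3 again lay above the 3 hepatectomy values. Orc1, the largest subunit of the origin recognition complex, had 0 counts in all 3 hepatectomy libraries and 0.449, 0.0923 and 0.304 CPM in sham (adjusted p = 0.024), and since the mean sham level lay under what 3 counts per library amount to in the hepatectomy group, no fold is given. Gmnn encodes geminin, which blocks relicensing by binding Cdt1, and stood at 0.519, 0.419 and 0.292 against 0.786, 1.94 and 3.39 CPM (log2 -2.31 ± 0.61, adjusted p = 0.00722). Cdc6, the loader of the ring, did not pass, at 2.85, 2.51 and 2.19 CPM against 2.47, 2.03 and 0.456 CPM (log2 0.65 ± 0.61, adjusted p = 0.403), with overlapping libraries. Mcm5 also missed the threshold, at 5.19, 2.37 and 3.65 against 5.73, 6.28 and 8.41 CPM (adjusted p = 0.203).

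Among polymerase and clamp genes, Pola1, Prim1, Rfc4 and Pold3 fell. Pola1, the catalytic subunit of the polymerase that extends primers, had 3 counts over the 3 hepatectomy libraries and stood at 1.24, 1.66 and 3.24 CPM in sham, 17.1-fold (exact 95% interval 5.66 to 84.2) higher in sham by pooled counts (adjusted p = 0.00317). Prim1, the catalytic subunit of primase, had 1 count after hepatectomy, in replicate 1, and stood at 0.898, 1.11 and 2.58 CPM in sham, 39.1-fold (exact 95% interval 6.79 to 1560) higher by pooled counts (adjusted p = 0.00285). These intervals cover counting error only. Pcna did not differ beyond its spread, at 30.5, 19 and 16.5 against 17.7, 25.1 and 30.0 CPM (log2 -0.14 ± 0.35, adjusted p = 0.761), and Rpa2, a subunit of the single-strand binding protein, stood at 7.79, 5.17 and 6.72 against 12.1, 9.14 and 8.05 CPM (adjusted p = 0.196). All 3 values of Rpa2 lay below sham, those of Pcna overlapped. No gene of helicase activation passed: Cdc45 stood at 2.6, 2.79 and 3.5 against 6.96, 4.89 and 2.23 CPM, and Gins2, of the GINS complex, at 0.519, 0.838 and 0 against 1.12, 1.02 and 0.557 CPM.

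Of the nucleotide supply genes, Rrm1, the large subunit of ribonucleotide reductase, fell from 6.85, 9.23 and 22 CPM in sham to 2.6, 2.37 and 2.77 CPM (log2 -2.30 ± 0.55, adjusted p = 0.00443). Rrm2, its small subunit, stood at 0.519, 0.558 and 0 against 1.57, 0.923 and 0.608 CPM and Tyms, thymidylate synthase, at 0.26, 0.14 and 0.73 against 0.786, 0.831 and 2.18 CPM, both without overlap and short of the threshold (adjusted p = 0.196 and 0.0825). All 3 fork protection genes fell. Clspn encodes claspin, the adaptor that activates Chk1, and had 2 counts over the hepatectomy libraries, 11.8-fold (exact 95% interval 3.08 to 101) below sham, which stood at 0.449, 0.462 and 1.72 CPM. Dtl, the substrate receptor that sends Cdt1 for degradation, had 1 count and was 16-fold (exact 95% interval 2.64 to 652) below the 0.674, 0.739 and 0.76 CPM of sham (adjusted p = 0.0279 for Clspn and 0.0204 for Dtl). In the repair group Ung, the uracil glycosylase, fell, from 1.12, 0.462 and 0.608 CPM in sham to 1 count over 3 libraries (adjusted p = 0.0162), and so did Usp1, a deubiquitinase that acts on PCNA (log2 -0.73 ± 0.23, adjusted p = 0.0197).

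Of the chromatin genes, Cdca7 and Wdr76 fell, and 5 of 7 did not pass. Cdca7, a partner of the remodeller HELLS, stood at 0.13, 1.68 and 1.31 against 4.27, 7.2 and 1.77 CPM (log2 -2.08 ± 0.63, adjusted p = 0.0144). Uhrf1, which brings the maintenance methyltransferase to new DNA, was at 1.04, 1.12 and 0.438 against 0.449, 1.66 and 0.81 CPM and Slbp at 45.4, 44.5 and 45.7 against 33.9, 40.9 and 32.5 CPM, and neither passed in this fit (adjusted p = 0.883 and 0.115). The 3 values of Slbp lay above sham. E2f1, the activating transcription factor of this programme, had the lowest p of the set. It had 1 count in each hepatectomy library, 0.13, 0.14 and 0.146 CPM, against 2.25, 3.97 and 4.1 CPM in sham, 26.4-fold (exact 95% interval 8.86 to 130.0) lower by pooled counts (adjusted p = 0.000343). E2f8, an atypical repressor of E2F targets, and the cyclin E genes Ccne1 and Ccne2 did not pass. E2f8 stood at 4.67, 5.03 and 5.99 against 9.88, 10.8 and 1.98 CPM, Ccne1 at 0.779, 0.14 and 0.292 against 1.01, 0.831 and 0.405 CPM, and Ccne2 at 0.519, 0.558 and 0.73 against 1.91, 1.11 and 1.22 CPM.

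The 2 genes that rose at POD1 were Blm and Fen1. Blm, the helicase lost in Bloom syndrome, stood at 7.4, 5.72 and 4.82 CPM against 2.13, 1.48 and 1.72 CPM, without overlap (log2 1.75 ± 0.45, adjusted p = 0.00652). Replicates 1 and 2 were its 2 highest values in the series, and replicate 3 lay below 4 libraries of the later hepatectomy days, the highest of them replicate 2 of POD3 at 5.39 CPM. Fen1, the flap nuclease, stood at 1.95, 0.558 and 0.438 against 0.112, 0.0923 and 0.506 CPM, and replicate 1 of hepatectomy POD1 carried the difference: log2 1.86 ± 0.72, adjusted p = 0.046 with it and log2 0.88, adjusted p = 0.399, without it. With library size alone neither passed, at log2 0.76 (adjusted p = 0.216) for Blm and 0.68 (adjusted p = 0.487) for Fen1.

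Markers of other cells moved with these changes. At POD1 17 of the 19 endothelial markers fell (median log2 -4.97), and their summed level was 1693 to 1907 CPM after hepatectomy and 2089 to 40560 CPM after sham. So did 6 of 8 B cell markers, 8 of 9 stellate cell and fibroblast markers and 8 of 12 Kupffer cell and macrophage markers. Of 9 markers of early granulocyte precursors 6 were tested, of which 1 rose and 0 fell (median log2 0.33). Their summed level was 2283 to 3524 CPM after hepatectomy and 5.72 to 202 CPM after sham, with Ctsg at 0 in both, and their part in the result was not tested. With the endothelial score as a covariate 6 of the 44 genes fell, where 24.5% of all genes did, and 3 rose, where 18.9% of all genes did. E2f1, Pola1, Prim1 and Cdca7 were among the 6, and Blm and Fen1 among the 3. The hepatectomy libraries had scores of 4.58 to 5.58, below every sham library (6.49 to 10.7), so that operation and endothelial content cannot be told apart on this day.

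The second comparison asked the same at POD2, when the set stood higher after hepatectomy. For 37 of the 44 genes all 3 hepatectomy libraries lay above all 3 sham libraries, against 22.9% of all genes, and the exceptions were Gmnn, Pold3, Fen1, Blm, Slbp, Wdr76 and Ccne2. The median log2 fold change was 1.17, against -0.02 over all genes. In the edgeR fit over 8 groups none of the 44 passed in either direction, where 0.0349% of all genes did upward and 0.0628% downward, while 20 of the 44 had an unadjusted p under 0.05 and a higher level (8.87% of all genes had one in either direction). That fit shares 1 spread over groups whose libraries differ in endothelial content. Among the 6 libraries of POD2 alone, 31 genes rose (14.8% of all genes), DESeq2 on all libraries called 12 (0.812%), and edgeR with the endothelial score as a covariate called 24 (5.48%). None of these fits called a member lower.

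Every value given in this paragraph is a level in CPM at POD2, hepatectomy first. Mcm2 stood at 46.8, 60.0 and 43.4 against 20.4, 15.9 and 21.6, Mcm5 at 42.5, 54.5 and 38.7 against 17.4, 15.1 and 16.9, and Mcm6 at 32.2, 46.3 and 32.8 against 8.78, 7.17 and 7.52. The ring subunits were thus without overlap, and the ratio of group means was 4.74 for Mcm6, 2.75 for Mcm5, 2.6 for Mcm2 and 1.26 for Mcm3, the most abundant of them per kilobase. Cdc6 stood at 4.12, 6.39 and 3.84 against 1.3, 0.729 and 0.905 and Orc1 at 1.81, 1.69 and 1.69 against 0.433, 0.56 and 0.226. Gmnn overlapped, at 6.54, 7.78 and 4.75 against 5.45, 3.75 and 3.9. In helicase activation Cdc45 stood at 6.78, 6.93 and 5.14 against 2.85, 1.62 and 2.04 and Gins2 at 5.14, 5.73 and 4.88 against 1.64, 1.12 and 0.622, again without overlap.

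Among the genes of DNA synthesis at POD2, Pcna stood at 47, 57.2 and 46 against 34.3, 39.9 and 36.6 CPM (log2 0.44 ± 0.35, adjusted p = 0.742), Pola1 at 5.93, 11.5 and 7.68 against 4.8, 5.1 and 5.43 CPM, and Rpa2 at 12.5, 12.1 and 10.2 against 7.14, 8.18 and 8.65 CPM. All 3 were without overlap, with ratios of means of 1.36, 1.64 and 1.45. The subunits of ribonucleotide reductase differed more from each other: Rrm2, the subunit made mainly in S phase, stood at 7.56, 9.34 and 5.93 against 1.12, 1.4 and 0.961 CPM, a ratio of 6.55, and Rrm1 at 29.2, 41.3 and 30.1 against 24.6, 26.5 and 27.4 CPM, a ratio of 1.28. Tyms stood at 5.75, 6.45 and 4.62 against 3.29, 2.41 and 2.88 CPM.

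Of the repair and fork genes at POD2, Ung stood at 3.69, 4.4 and 2.67 CPM against 0.692, 0.224 and 0.905 CPM, Dtl at 3.45, 5.06 and 3.45 against 0.822, 0.504 and 0.679 CPM, and Clspn at 3.27, 5.97 and 4.49 against 0.908, 2.58 and 2.54 CPM. All 3 genes were without overlap. The ratio of means was 5.91 for Ung and 5.97 for Dtl, and 2.28 for Clspn. Exo1 had the largest ratio of the set, 6.89, on group means of 2.03 and 0.294 CPM. Blm, higher at POD1, overlapped here, at 2.24, 4.82 and 3.26 against 2.12, 2.41 and 2.6 CPM. Among chromatin genes Uhrf1 stood at 8.71, 13.6 and 9.44 against 1.86, 1.18 and 1.81 CPM and Cdca7 at 8.17, 5.79 and 6.06 against 2.47, 1.4 and 0.961 CPM, while Slbp was level, at 41.5, 36.6 and 35.8 against 37.4, 36.5 and 42.1 CPM (log2 -0.03 ± 0.17, adjusted p = 0.974).

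Of the S phase entry genes at POD2, E2f1 stood at 13.7, 16.4 and 11.8 against 5.36, 2.8 and 3.85 CPM (log2 1.80 ± 0.53, adjusted p = 0.234), E2f8 at 4.05, 6.21 and 5.99 against 2.77, 1.68 and 1.58 CPM, and Ccne1 at 2.54, 3.86 and 2.41 against 0.216, 0.617 and 0.848 CPM. These 3 were without overlap, and Ccne2 overlapped, at 1.94, 4.1 and 2.41 against 1.25, 1.06 and 2.04 CPM. Marker levels also differed. The summed endothelial level was lower after hepatectomy, 23690 to 28060 against 35270 to 42860 CPM, and that of the neutrophil markers higher, 19750 to 29980 against 3635 to 8594 CPM. None of the 19 and none of the 12 passed in the fit over 8 groups. Their part in the result was tested only through the covariate fits given here, and at POD2 as well the endothelial scores of the 2 operations did not overlap.

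**Figure D2:**
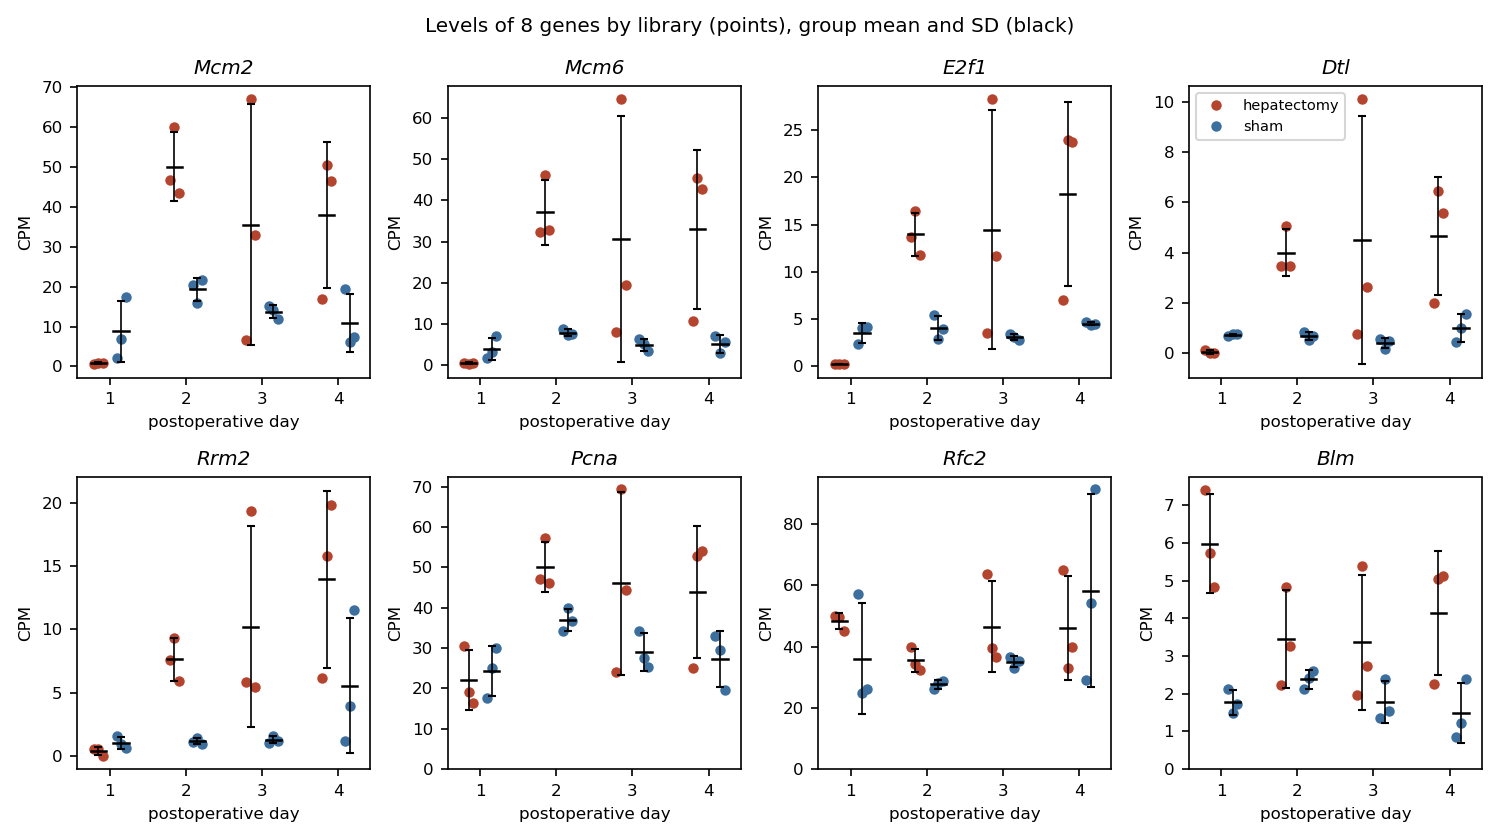
Level in CPM (linear axes) of 8 genes by postoperative day, with 1 point per library, hepatectomy red and sham blue, and the group mean and SD in black. Mcm2, Mcm6, E2f1, Dtl and Rrm2 lie near 0 in hepatectomy POD1 and above sham in hepatectomy POD2, with wide spread in hepatectomy POD3 and POD4, whereas Blm has its 2 highest points in hepatectomy POD1 and Rfc2 its highest in sham POD4.

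At POD3 and POD4 the set again stood higher after hepatectomy in most libraries, and the libraries of a group spread widely. At POD3 all 44 genes had a higher fitted level after hepatectomy and 43 did at POD4, Rfc2 being the exception, with medians of log2 1.32 and 1.58 against 0.01 and -0.02 over all genes. All 3 hepatectomy libraries lay above sham for 18 genes at POD3, against 8.03% of all genes, and for 17 at POD4, against 2.69%. In the edgeR fit 0 of the 44 passed at POD3, where 0.0209% of all genes passed upward and 0% downward, and 0 at POD4, where 0% did upward and 0% downward. At an unadjusted p under 0.05, 27 genes were higher at POD3 and 30 at POD4, where 7.58% and 4.81% of all genes passed in either direction. DESeq2 called 16 higher at POD3 (1.9% of all genes) and 5 at POD4 (0.21%).

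Within hepatectomy POD3, replicate 1 was the lowest library for 36 of the 44 genes and replicate 3 for the other 8, and replicate 2 was the highest for 41. Within hepatectomy POD4, replicate 1 was the lowest for 43 genes and replicate 2 for Rfc2. The endothelial score was 6.09 and 7.57 in the first replicates of POD3 and POD4, below the other libraries of their groups. Mcm2 stood at 6.59, 67 and 33 CPM in the 3 libraries of hepatectomy POD3 and at 15, 14.2 and 11.9 CPM in sham, so that replicate 1 lay under every sham value and replicates 2 and 3 above. At POD4 it stood at 16.9, 50.5 and 46.4 against 19.3, 6.12 and 7.49 CPM. E2f1 stood at 3.46, 28.3 and 11.6 against 3.33, 3 and 2.75 CPM at POD3 and at 6.93, 23.9 and 23.8 against 4.61, 4.28 and 4.4 CPM at POD4, without overlap on either day. Cdc6 was at 2.47, 11.3 and 2.74 against 0.953, 0.9 and 0.603 CPM and then 4.93, 7.49 and 7.95 against 0.78, 2.08 and 2.62 CPM, also without overlap. Replicate 1 was the lowest of its hepatectomy group for all 3 genes on both days.

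Dtl stood at 0.741, 10.1 and 2.64 against 0.544, 0.15 and 0.469 CPM at POD3 (log2 3.55 ± 0.77, adjusted p = 0.118) and at 2, 6.43 and 5.59 against 0.425, 0.979 and 1.55 CPM at POD4. Uhrf1 stood at 3.13, 21.5 and 7.23 against 1.29, 1.2 and 0.536 CPM and then at 4.01, 15.8 and 15.4 against 0.993, 1.59 and 5.95 CPM. Both were clear of sham at POD3, and at POD4 Uhrf1 overlapped through replicate 3 of sham. Clspn, whose POD3 libraries overlapped at 1.4, 12.2 and 3.06 against 1.84, 1.9 and 1.27 CPM, was clear of sham at POD4, at 3.84, 12.4 and 13 against 1.77, 0.489 and 1.19 CPM (log2 3.04 ± 0.76, adjusted p = 0.422). Rrm2 was clear at POD3, at 5.85, 19.3 and 5.43 against 1.02, 1.55 and 1.21 CPM, and overlapped at POD4, at 6.18, 15.8 and 19.8 against 1.21, 3.92 and 11.5 CPM, again through replicate 3 of sham. Pcna overlapped on both days, at 24.1, 69.5 and 44.5 against 34.3, 27.6 and 25.2 CPM and at 25, 52.8 and 54 against 33, 29.5 and 19.5 CPM.

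Cyclin E and further licensing and helicase genes were clear of sham on some of these days. Mcm5 stood at 9.8, 69 and 28.1 against 11.6, 10.6 and 8.31 CPM at POD3, with overlap, and at 16.4, 50.5 and 48.3 against 13.8, 5.75 and 14.9 CPM at POD4, without. Ccne1 stood at 1.9, 7.24 and 2.11 against 0.613, 0.5 and 0.738 CPM at POD3, without overlap, and at 1.5, 5.88 and 6.65 against 0.78, 0.857 and 1.55 CPM at POD4, with overlap. Ccne2 overlapped at POD3, at 1.32, 9.08 and 2 against 1.36, 1.05 and 0.872 CPM, and was clear at POD4, at 2.67, 6.89 and 7.86 against 1.63, 0.734 and 1.19 CPM. Orc1 overlapped at POD3, at 0.412, 3.13 and 1 against 0.544, 0.2 and 0.335 CPM, and was clear at POD4, at 0.585, 2.21 and 2.17 against 0.213, 0.367 and 0.238 CPM. Gins2 was clear on both days, at 1.48, 8.21 and 4.54 against 0.817, 0.75 and 0.939 CPM and then 2.25, 7.95 and 7.28 against 1.42, 1.22 and 0.714 CPM, and replicate 1 was the lowest hepatectomy library for all 5 genes. Brip1 had the lowest p of the set at POD4, at 2.34, 4 and 4.63 against 0.851, 0.612 and 0.595 CPM (log2 2.38 ± 0.57, adjusted p = 0.422).

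In synthesis and nucleotide supply, Pola1, Rpa2, Rrm1 and Tyms overlapped with sham at POD3 and at POD4. Pola1 stood at 1.65, 13.2 and 6.75 against 3.47, 3.4 and 3.62 CPM at POD3 and at 3.51, 11.9 and 11.5 against 4.18, 2.08 and 2.14 CPM at POD4. Rpa2 stood at 6.01, 16.8 and 7.6 against 8.98, 7.4 and 6.44 CPM and then at 7.1, 12.5 and 14.8 against 8.51, 9.42 and 5.35 CPM. Rrm1 stood at 11, 56 and 32.1 against 20.9, 21 and 18.2 CPM and then at 15.1, 44.1 and 44.3 against 24, 8.32 and 17.1 CPM, and Tyms at 2.06, 15 and 5.28 against 2.99, 2.1 and 1.94 CPM and then at 2.84, 10.2 and 10.5 against 3.83, 0.979 and 1.55 CPM. In these 4 genes replicates 2 and 3 of hepatectomy POD4 lay above every sham library of that day and replicate 1 did not. Gmnn overlapped in the same manner at POD4, at 3.01, 8.96 and 10.8 against 3.83, 3.79 and 2.38 CPM, and at POD3 through replicate 1 alone, at 4.28, 12.8 and 5.86 against 3.54, 3 and 4.56 CPM.

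Ung was clear of sham on both days, at 0.741, 5.44 and 1.74 against 0.408, 0.2 and 0.603 CPM at POD3 and at 1.25, 2.53 and 3.13 against 0.496, 0.612 and 0.119 CPM at POD4. Blm overlapped on both days, at 1.98, 5.39 and 2.74 against 1.36, 2.4 and 1.54 CPM and then at 2.25, 5.05 and 5.11 against 0.851, 1.22 and 2.38 CPM, as did Slbp, at 35.6, 48.4 and 37.5 against 36.6, 35.2 and 31.9 CPM and then at 33.9, 38.4 and 41.5 against 35.4, 39.5 and 28.1 CPM. Cdc45, Cdca7 and E2f8 were among the 8 genes with their lowest value of hepatectomy POD3 in replicate 3. Cdc45 stood at 6.34, 11.1 and 3.27 against 5.04, 4.45 and 2.82 CPM at POD3 and at 8.44, 8.91 and 10.6 against 2.41, 9.06 and 10.8 CPM at POD4, Cdca7 at 5.52, 8.06 and 3.01 against 3.2, 3.4 and 2.68 CPM and then at 3.34, 5.01 and 5.06 against 2.34, 3.06 and 5.11 CPM, and E2f8 at 12.4, 10.7 and 3.48 against 3.54, 4.85 and 3.49 CPM and then at 7.18, 12.1 and 12.4 against 1.63, 9.67 and 17.8 CPM. All 3 overlapped on both days, and at POD4 replicate 3 of sham lay above each hepatectomy library.

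Fits that take the endothelial content into account called more genes at POD3 and none at POD4. With the score as a covariate 32 of the 44 rose at POD3 (3.99% of all genes) and 0 at POD4, where 27 had an unadjusted p under 0.05 (12.1% of all genes in either direction). Without the 4 libraries of POD3 and POD4 that lay below the gap, 19 rose at POD3 (1.12%) and 0 at POD4, where the median rose from log2 1.58 to 2.01 with 1 sham library left, assumed to vary like the other groups. Leaving out replicate 1 of hepatectomy POD3 alone gave 5 genes higher (0.126% of all genes), among them Dtl, Uhrf1 and E2f1, and leaving out replicate 2 or 3 instead gave 0. At POD3 the summed endothelial level was 1584 to 30770 CPM after hepatectomy and 29370 to 33790 CPM after sham, and at POD4 4337 to 27550 and 1680 to 35880 CPM. At POD3, 2 of 9 stellate cell and fibroblast markers rose, with summed levels of 311 to 352 CPM after hepatectomy and 205 to 348 CPM after sham. None of the 10 hepatocyte markers passed on that day, with a median of log2 2.46 and summed levels of 75.2 to 1309 CPM and 70.0 to 104 CPM. The part of these markers in the result was not tested.

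**Figure D3:**
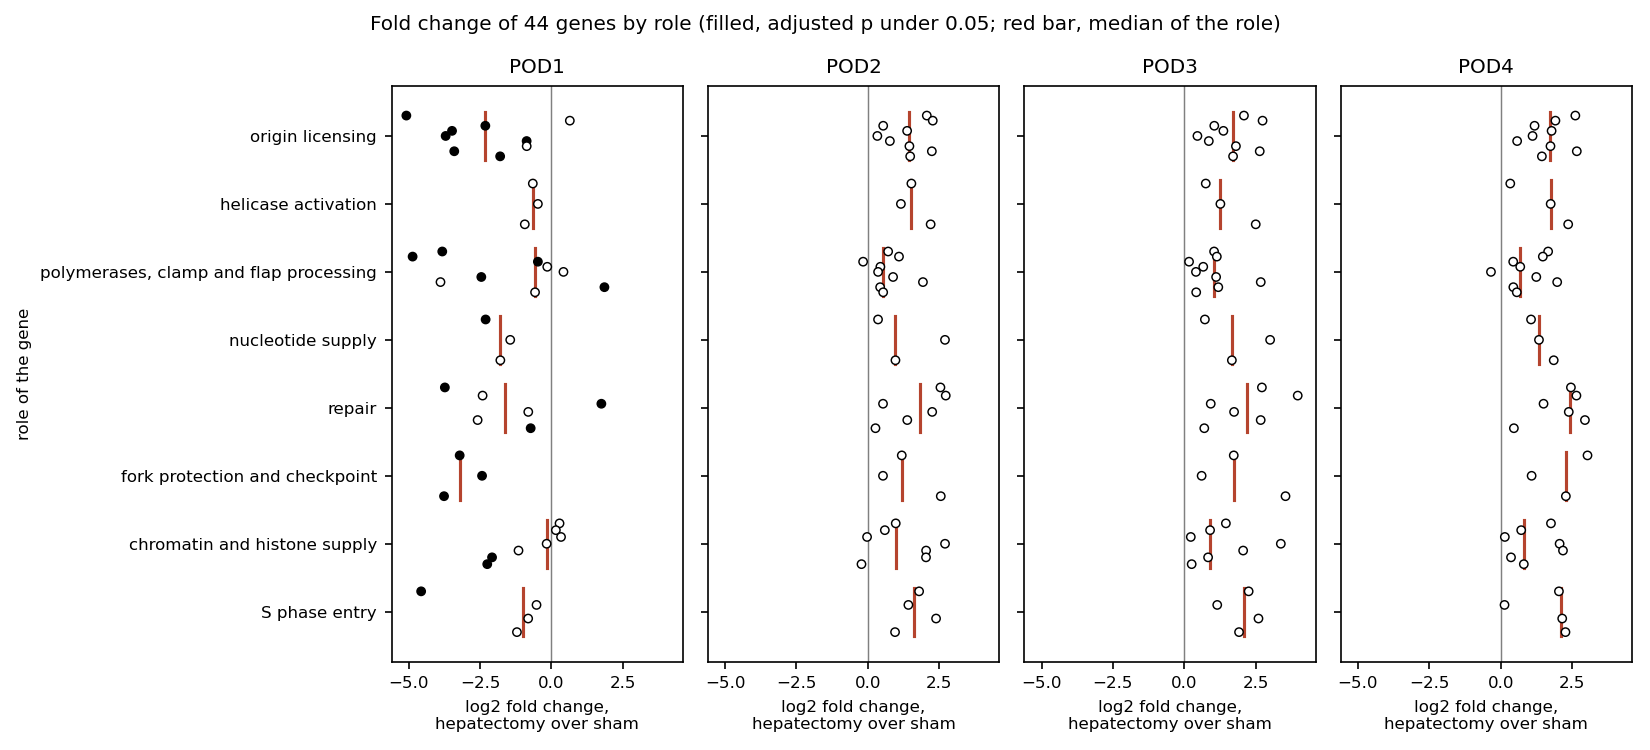
log2 fold change of hepatectomy over sham for each of the 44 genes (points), by role (rows) and day (panels), with the median of each role as a red bar and genes past an adjusted p of 0.05 in the fit over 8 groups filled. Filled points are found at POD1, 20 to the left of 0 and 2 to the right, and at POD2 to POD4 nearly all points lie to the right of 0 and none is filled.

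The day-to-day steps within an operation share their libraries with the comparisons above and with each other. From POD1 to POD2 after hepatectomy 35 of the 44 genes rose and 0 fell, where 34.5% of all genes rose and 21.9% fell. At an unadjusted p under 0.05 there were 38 higher and 0 lower (62.5% of all genes in either direction), and DESeq2 called 35 higher and 2 lower (33.5% and 27.8% of all genes). The median was log2 3.55, or 3.31 with Orc1 and Dscc1 at their bound, against 0.33 over all genes. With the score as a covariate 23 rose, where 20.6% of all genes did, and the median was log2 2.10. Mcm2 went from 0.791 ± 0.241 to 50.1 ± 8.77 CPM (mean ± SD, n = 3; log2 5.98 ± 0.87, adjusted p = 8.19e-05), Mcm6 from 0.371 ± 0.223 to 37.1 ± 7.96 CPM (log2 6.62 ± 0.87, adjusted p = 3.78e-05), and Mcm7 from 1.97 ± 0.321 to 21.7 ± 3.63 CPM (log2 3.46 ± 0.49, adjusted p = 6.48e-05). E2f1 went from 3 counts over the group to 13.9 ± 2.32 CPM, 101-fold (exact 95% interval 34.5 to 493) higher (adjusted p = 1.32e-05). Orc1 had 0 counts at POD1 and 1.73 ± 0.0721 CPM at POD2, and with 3 counts assumed in each library of POD1 it was at least 4.17-fold higher, and Dscc1 was at least 3.27-fold higher on the same floor.

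The 9 genes that did not pass this step were Rpa2, Nasp, Cdc45, Blm, Cdc6, Slbp, Rfc2, Fen1 and E2f8. Of these, Blm, Slbp and Rfc2 had lower fitted levels at POD2, with log2 -0.80 ± 0.43, -0.25 ± 0.17 and -0.45 ± 0.36. Slbp rose when library size alone was the scale (log2 1.02, adjusted p = 0.0112). From POD2 to POD3 after hepatectomy 0 of the 44 passed (0% of all genes upward, 0% downward, with 0 members at an unadjusted p under 0.05 and 0 with DESeq2), with a median of log2 -0.02. From POD3 to POD4 the count was again 0 (0% and 0% of all genes, with 0 members unadjusted and 0 with DESeq2), with a median of log2 0.13. The libraries of both days spread widely. Without the 4 POD3 and POD4 libraries of low endothelial score, the median from POD2 to POD3 was log2 0.24. In that fit 41 of the 44 genes had a change above 0, against 21 with all libraries.

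In sham libraries edgeR called 0 of the 44 genes at each step. From POD1 to POD2 0% of all genes passed upward and 0% downward, 6 members had an unadjusted p under 0.05 upward and 3 downward (26.2% of all genes in either direction), and DESeq2 called 2 lower (15% of all genes). From POD2 to POD3 the shares were 0% and 0%, with 0 members at an unadjusted p under 0.05 and 0 with DESeq2, and from POD3 to POD4 0% and 0%, with 1 member higher unadjusted and 0 with DESeq2. In the first of these steps replicate 3 of sham POD1 stood apart. It held Mcm3 at 58.7 CPM against 8.76 and 13.4 CPM in replicates 1 and 2, and without it 9 members were called higher and 3 lower at POD2, where 25.4% of all genes were higher and 25.6% lower. Without replicate 1 of sham POD4, 3 were called higher at POD4 than at POD3, where 7.27% of all genes were.

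Whether the effect of hepatectomy differed between days was tested as the interaction of operation and day. Of the 44 genes 19 passed, against 8.68% of all genes, 33 had an unadjusted p under 0.05 (29.1% of all genes), and DESeq2 called 31 (23.5%). Mcm6 (adjusted p = 0.00414) and Mcm7 (adjusted p = 0.00541) came after E2f1 (adjusted p = 0.000825) in order of p. For E2f1 the fitted log2 fold changes were -4.56 ± 0.77 at POD1 and 1.80 ± 0.53, 2.26 ± 0.54 and 2.04 ± 0.54 on the next 3 days. For Mcm6 they were -3.40 ± 0.83 and then 2.24 ± 0.65, 2.64 ± 0.66 and 2.67 ± 0.67. The direction at POD1 was thus opposite to the later days in both genes. Each contrast of this test includes POD1 of both operations. Without replicates 1, 2 or 3 of hepatectomy POD1 the count was 5, 7 or 5, where 3.16%, 4.36% or 3.49% of all genes passed. It was 11 without replicate 3 of sham POD1 (6.25% of all genes), 12 without replicate 2 or replicate 3 of hepatectomy POD4 (5.47% and 5.51%), and 30 without replicate 1 of sham POD4 (33.1%).

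Genes with and without an E2F word in the promoter window were set side by side, with no test. Of the 13 with a word 9 fell at POD1 and 12 rose from hepatectomy POD1 to POD2. Of the 21 without one, 7 fell and 2 rose at POD1 and 14 rose in the step. The 10 genes with no window gave 4 that fell at POD1 and 9 that rose in the step. Of all genes tested 28% fell and 13% rose at POD1, and 34.5% rose in the step. The median log2 fold change at POD2 was 2.04 with a word and 0.98 without, at POD3 1.81 and 1.16, and at POD4 1.92 and 1.34. For the genes with no window it was 0.86 at POD2, 1.16 at POD3 and 1.47 at POD4. Of the 13 genes with a word 6 were licensing genes, so word and role cannot be told apart. Those without a word include E2f1, whose window lay inside its outermost start.

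How far the set followed the endothelial content was described over the 9 libraries below the gap and the 15 above it. The median level was lower in the 9 for 35 of the 44 genes and higher for 9. The same share over all genes was not taken, so these counts cannot be read as particular to the set. The 9 include every library of hepatectomy POD1, so this split overlaps with the differences between days. For 4 of the 44 genes, Mcm3, Rrm1, Tipin and Wdr76, all 9 lay below all 15. This was a smaller share than the 24.5% of all genes tested. Mcm3 stood between 1.4 and 22.8 CPM in the 9 and between 43.9 and 112 CPM in the 15, sham libraries included. Tipin, a partner of the fork protection protein Timeless, stood between 0.519 and 3.09 CPM and between 4.96 and 15.3 CPM. At POD2 these 4 genes had fitted log2 fold changes of 0.33 ± 0.74 for Mcm3, 0.36 ± 0.50 for Rrm1, 0.53 ± 0.72 for Tipin and -0.22 ± 0.61 for Wdr76.

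**Figure D4:**
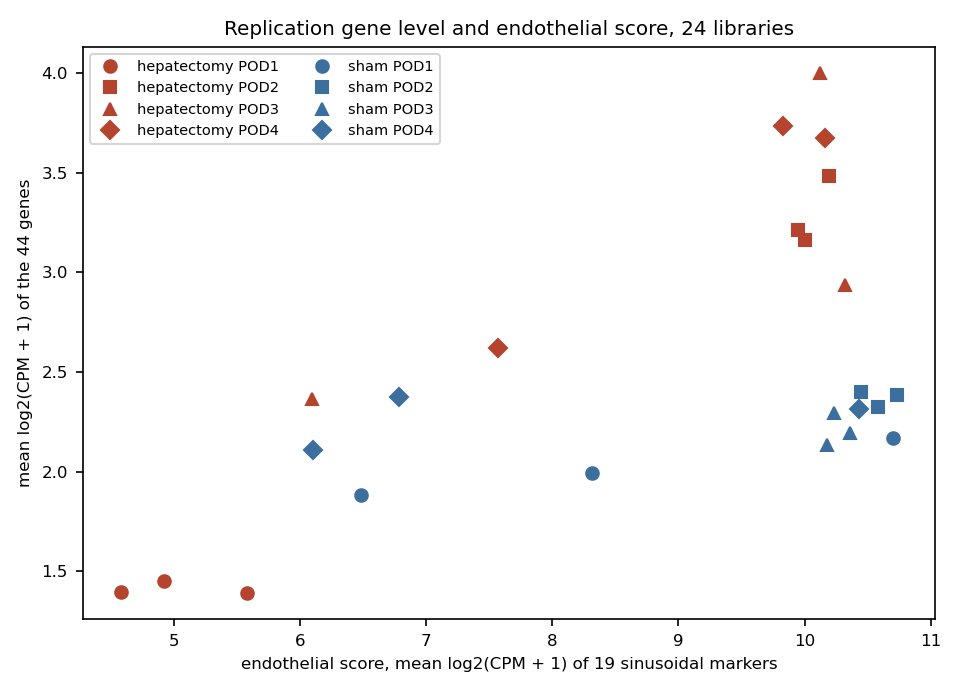
Mean log2(CPM + 1) of the 44 genes against the endothelial score (mean log2(CPM + 1) of 19 sinusoidal markers), 1 point per library, coloured by operation and shaped by day. At scores of 9.83 or more the 7 hepatectomy libraries stand between 2.94 and 4 and the 8 sham libraries between 2.14 and 2.4, and the 3 libraries of hepatectomy POD1 lie lowest at the left.

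The 9 genes with the higher median in the libraries below the gap were Cdc6, Mcm4, Cdc45, Rfc2, Rrm2, Slbp, Cdca7, E2f8 and Ccne1. Rfc2 stood between 25 and 91.6 CPM in the 9 libraries and between 26.1 and 39.9 CPM in the 15. Its highest value, 91.6 CPM, was in replicate 3 of sham POD4, the library with the highest neutrophil score of the series (12.8). E2f8 was also highest in that library, at 17.8 CPM, and its median was 9.67 CPM in the 9 and 3.54 CPM in the 15. Cdc45 had medians of 6.34 and 4.45 CPM, and Cdc6 of 2.47 and 1.3 CPM. The highest values of Cdc45 and Cdc6, 11.1 and 11.3 CPM, lay above the gap all the same, both in replicate 2 of hepatectomy POD3. The 9 libraries came from both operations.

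Other genes of the pathway were counted from lists chosen by function. At POD1, 1 higher and 21 lower of 46 further replication genes passed, among them Pold1, the catalytic subunit of the lagging-strand polymerase (log2 -2.58 ± 0.42, adjusted p = 0.000254), and Pole2, a subunit of polymerase epsilon (log2 -3.81 ± 0.92, adjusted p = 0.00455), both of which fell. Of 29 G1 to S regulators 3 higher and 10 lower passed, with Ccnd1 (cyclin D1) lower at 2.85, 3.21 and 1.9 against 8.42, 22.5 and 173 CPM (log2 -4.68 ± 1.10, adjusted p = 0.00388), Cdkn2b, an inhibitor of its kinase, lower too, and Cdk2, the partner kinase of cyclin E, higher (log2 1.22 ± 0.29, adjusted p = 0.00455), though not with library size alone (log2 0.24, adjusted p = 0.486). Of 20 G2 and M phase genes 1 higher and 7 lower passed, Cenpa, Cdk1 and Ube2c leading those that fell, and of 13 replication checkpoint genes 0 higher and 4 lower, with Rad9a, Brca2 and Rad1 lower. The medians were -1.52, -0.79, -1.83 and -1.20 in this order, against -0.42 over all genes, of which 13% rose and 28% fell.

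In the step from hepatectomy POD1 to POD2, 36 higher and 2 lower of the 46 further replication genes passed, 15 higher and 7 lower of the 29 G1 to S regulators, 16 higher and 0 lower of the 20 G2 and M phase genes and 7 higher and 0 lower of the 13 checkpoint genes, where 34.5% of all genes rose and 21.9% fell. Pold1 led the first list (log2 3.71 ± 0.43, adjusted p = 1.32e-05), with Pole2 and the ligase Lig1, Cdc25a, a phosphatase that activates Cdk2, the second (log2 2.75 ± 0.45, adjusted p = 0.000227), Cdk1 the third (log2 5.70 ± 0.95, adjusted p = 0.000262), and Wee1, the kinase that inhibits Cdk1, the last (log2 3.85 ± 0.65, adjusted p = 0.000292).

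Between operations at POD2, POD3 and POD4 edgeR called 0 genes of these 4 lists. At an unadjusted p under 0.05, the further replication genes had 10, 11 and 13 higher on the 3 days, the G1 to S regulators 4, 6 and 6, the G2 and M phase genes 13, 16 and 6 and the checkpoint genes 5, 5 and 3, with at most 1 lower in any of them. DESeq2 called 2, 6 and 2 of the further replication genes higher, 0, 1 and 0 of the G1 to S regulators, 1, 13 and 0 of the G2 and M phase genes and 1, 2 and 1 of the checkpoint genes, and 0 lower. Over all genes DESeq2 called 0.812%, 1.9% and 0.21% higher, and edgeR at an unadjusted p gave 8.87%, 7.58% and 4.81% in either direction. Mki67, the gene of the proliferation antigen Ki-67, rose at POD1. It stood at 61.4, 51.8 and 43.4 CPM after hepatectomy against 21.4, 13.3 and 3.75 CPM after sham (log2 2.03 ± 0.73, adjusted p = 0.0341), without overlap, and did not pass with library size alone (log2 1.29, adjusted p = 0.0971). Top2a, the topoisomerase of dividing cells, stood at 1.3, 0.14 and 1.02 against 5.05, 3.05 and 1.72 CPM on that day (log2 -1.96 ± 0.93, adjusted p = 0.0978) and rose from POD1 to POD2 after hepatectomy (log2 4.13 ± 0.95, adjusted p = 0.00223).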

How the data were processed

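Polyadenylated RNA of liver cell fractions enriched with beads for CD11b+Ly6G+ cells was sequenced in 24 libraries. The authors deposited whole-number counts per gene symbol, 1 column per library, with 0 columns that match no sample. Per the submitters' processing notes, cutadapt, STAR 2.4.2a and HTSeq were used with GRCm38. The annotation release, strand setting and filters are not given in the sources used here. Without the strand setting, overlapping and antisense genes may share reads.

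From these counts, edgeR 4.0.16 (R 4.3.3, limma 3.58.1) was run with TMM scaling and its default low-count filter on 14325 genes, in 1 quasi-likelihood fit over 8 groups with 16 residual degrees of freedom. P-values were Benjamini-Hochberg adjusted over all genes tested, with a threshold of 0.05, two-sided. Log2 fold changes are given ± SE (the absolute change over the square root of F), hepatectomy minus sham or later minus earlier day. Genes at 0 in a group were bounded by a floor of 3 counts per library, or left out of the median with bounds where the other group lay under it. Ratios of genes with 1 to 3 counts carry exact conditional binomial intervals of 95%, which cover counting error only. The fitting script was tested on simulated data. Each library pair of a group differed beyond counting noise (chi-square per degree of freedom of 9.13 or more), so none was merged.

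Alternatives were DESeq2 1.42.0, median-of-ratios factors, library size alone, no low-count filter, at least 5 CPM in 3 libraries, the 2 groups alone, a replicate block, endothelial or neutrophil score as covariate, leaving out the 4 POD3 and POD4 libraries with low endothelial score, and leaving out each library. The members and lists were chosen with earlier results of these data known. Values or counts in every library of each day are given for genes listed by role, and values by library or as group means with SD for the 3 lowest p in each direction past the threshold, and for members past it against the majority. From the other lists up to 3 genes per comparison are named, with Mki67 and Top2a, and 1 gene that this rule gives is not reported here. Exo1, Mcm3, Tipin, Rfc2, Usp1 and Brip1 were named after their values were seen. Exon lengths are from GENCODE M21.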

Additional observations from a re-analysis of the deposited data

Results flagged for a closer look

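For 19 of the 44 genes the effect of hepatectomy differed between the 4 days, by the interaction test of edgeR over all genes. The adjusted p was 0.000825 for E2f1, the activating factor of S phase genes. Among licensing genes it was 0.00414 for Mcm6, 0.00541 for Mcm7, 0.0122 for Mcm2, 0.0183 for Mcm4, 0.036 for Mcm3, 0.0248 for Gmnn and 0.0373 for Orc1. Among genes of DNA synthesis it was 0.0134 for Pola1, 0.0137 for Prim1, 0.0298 for Rfc4 and 0.0248 for Rrm1. In the fork and repair groups it was 0.0128 for Dtl, 0.0266 for Clspn, 0.014 for Ung, 0.0324 for Usp1 and 0.047 for Exo1. For the chromatin genes Cdca7 and Hells it was 0.0246 and 0.0492. The endothelial score moved with the POD1 difference, and with that score as a covariate 17 of the 44 genes passed the interaction test, where 33.9% of all genes did, and 19 with the neutrophil score, where 24.4% did. Without a covariate the share of all genes was 8.68%.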

How the results depend on the processing

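Single genes were followed only for the members listed by role, with the 3 lowest p, or against the majority. The comparisons were those between operations on each day and the step from hepatectomy POD1 to POD2. Each gene counted once per comparison and alternative fit. Of these values 1757 kept their direction and side of the threshold, 140 passed it only under an alternative, 51 lost it, and 24 moved. Slbp reversed in the step from hepatectomy POD1 to POD2 (log2 1.02 with library size alone, adjusted p = 0.0112). Counts of genes moved more, and the share of all genes called moved between fits as well. At POD1, 2 genes were higher in the fit over 8 groups, 0 with library size alone, 1 without the low-count filter, at 5 CPM, in the 2 groups alone and with the replicate block, and 4 with the neutrophil covariate (1 to 2 without single libraries). Of all genes 13%, 4.26%, 4.91%, 14.5%, 5.72%, 12.9% and 15.9% were higher in these 8-group and alternative fits, in this order. Without single libraries 9.1% to 15% of all genes were higher. Where 20 were lower (28% of all genes), there were 8 in the 2 groups alone (8.57%), 6 with the endothelial (24.5%) and 10 with the neutrophil covariate (23%). Without single libraries there were 11 to 19 (14% to 32.2% of all genes). At POD2, where 0 were higher, DESeq2 gave 12 (0.812% of all genes) and the 2 groups alone 31 (14.8%). The endothelial and neutrophil covariates gave 24 (5.48%) and 22. At POD3, where 0 were higher, the values were 16 with DESeq2 (1.9%) and 32 (3.99%) and 18 with these covariates. Without single libraries they were 0 to 5 (0% to 0.126%). At POD4 DESeq2 gave 5 (0.21% of all genes). The neutrophil covariate called 2.05% of all genes higher at POD2 and 0.949% at POD3. In the step from hepatectomy POD1 to POD2, 35 rose (34.5% of all genes) and with the endothelial covariate 23 did (20.6%). Against 0 lower (21.9% of all genes), DESeq2 gave 2 (27.8%), the 2 groups alone 2 (32.2%) and median-of-ratios factors 1 (25.5%). From sham POD1 to POD2, DESeq2 gave 2 lower (15% of all genes). Leaving out single libraries gave 0 to 9 higher and 0 to 3 lower there, where 0% to 25.4% and 0% to 25.6% of all genes were. From sham POD2 to POD3 the 2 groups alone gave 1 higher and 3 lower (11.1% and 2.29% of all genes). From sham POD3 to POD4 leaving out single libraries gave 0 to 3 higher (0% to 7.27%). For the interaction edgeR called 19 (8.68% of all genes), DESeq2 31 (23.5%) and library size alone 30 (17.7%). Leaving out single libraries gave 5 to 30 (3.16% to 33.1%), so the share of all genes moved as well. The causes were not tested.

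The replicate block gave 15 for the interaction (6.28% of all genes) and 18 lower genes at POD1 (24.7%). Same-numbered hepatectomy and sham libraries did not deviate together, with correlations from -0.863 to 0.192, so the numbers are names only. Depth limits the genes with 0 to 3 counts in hepatectomy POD1, whose ratios have wide intervals.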

Other observations

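Replicate 3 of sham POD4 stood apart from the other sham libraries in genes of later cell cycle phases. Its mean log2(CPM + 1) over the 20 G2 and M phase genes was 4.04, against 1.39 to 2.33 in the other 11 sham libraries, while its mean over the 44 replication genes was 2.38 and lay within the range of the sham libraries. The value lay between those of replicates 2 and 3 of hepatectomy POD4, which had 3.91 and 4.37 for the G2 and M phase genes and 3.67 and 3.73 for the replication genes. This library also had the highest neutrophil score of the series, 12.8, and an endothelial score of 6.79. The part of the marker scores in these values was not tested.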
